A study of Mus musculus with 9 samples.

Results

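The AP-1 Fos and Jun genes were read in mouse primary renal tubular epithelial cells of a Sham, a hypoxia/reoxygenation and an Egr1 overexpression group. The members were the 7 genes whose name in the table was Fos, Fosb, Fosl1, Fosl2, Jun, Junb or Jund, of 31167 genes in all. They were chosen by gene name and not by a filter on their values, though earlier results of these data were known. After Egr1 overexpression, Fos rose most of the 7, from 1.67 to 4.55 FPKM, and Fosl1 also rose. Junb rose just past the 1.3-fold threshold used here, a call that was lost in 5 alternative fits. Fosl2 rose from 30.3 to 39.4 FPKM, just short of that threshold, with a smaller adjusted p in limma than Junb. After hypoxia and 18 h of reoxygenation, Fosl1 was the only member that passed the test, from 13.1 to 17.3 FPKM. No earlier time was sampled, so an earlier, short rise could not be seen.

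AP-1 is a dimeric transcription factor built from basic leucine zipper proteins. Jun proteins can pair with each other or with a Fos protein, while Fos proteins need a Jun partner to bind DNA. Several members are immediate early genes, which are transcribed within minutes of a growth factor, cytokine or stress signal through MAP kinases and the factors SRF, ELK1 and CREB. In the kidney tubule, AP-1 and Egr1 are known as early responders to ischemic injury.

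RNA sequencing was done on 9 libraries in 3 groups, Sham, H/R and EGR1OV, with 3 libraries each. All cells were primary renal tubular epithelial cells from C57BL/6 mice, and the age and the number of animals behind each group are not given in the sources used here. H/R cells were kept for 6 h in glucose-free medium at 1.0% oxygen and then for 18 h under reoxygenation, and the treatment label stands on H/R samples alone. EGR1OV cells were transfected with an Egr1 plasmid driven by the CMV promoter, which is active in most cell types, at about 50% confluence with EndoFectin Max. A protocol text shared by all 9 samples describes both transfection and hypoxia/reoxygenation, and the study's methods place plasmid transfection before hypoxia/reoxygenation. The study's figure legend for this sequencing lists H/R, the Egr1 plasmid and no treatment as alternatives for the 3 groups. By that legend, EGR1OV cells received the plasmid without hypoxia/reoxygenation, and Sham cells were untreated. It names no control vector for any group. A difference of EGR1OV from Sham thus holds transfection and Egr1 together, which cannot be told apart. A difference from H/R holds hypoxia/reoxygenation as well, so it is not that of Egr1 alone. Nothing says that the libraries of a group came from separate cultures or animals, so p-values measure only the spread between these libraries.

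Egr1, the overexpressed zinc finger factor, was at 6.40 ± 0.443 FPKM for Sham, 7.88 ± 0.599 for H/R and 42.6 ± 2.84 for EGR1OV (SD, n = 3 each). FPKM divides the fragments of a gene by its exon length in kilobases and by the library total. Depth recovered from the FPKM steps ran from 16183617 to 18384022 reads per library. The transcript Gm23935 ran from 1494 to 21700 FPKM and was highest in Sham replicate 3 and in H/R replicates 2 and 3, followed by EGR1OV replicate 3 at 9378 FPKM, against 1494 and 1576 in the other EGR1OV libraries. Of 12 tubular epithelial markers, all reached a mean of 0.5 FPKM, and their summed level was 2564 to 2601 for Sham, 2343 to 2474 for H/R and 1931 to 2040 for EGR1OV. In EGR1OV against Sham, 2 of them were called higher and 4 lower, so the sum does not stand for each marker. Krt8 went from 1013.5 FPKM in Sham to 617.8 in EGR1OV and Krt18 from 684.6 to 412.1. Epcam went from 76.2 to 100.4 and Cldn7 from 40.2 to 55.7. Markers of differentiated tubule segments were near the floor, with 9 of the 12 in the table under a mean of 0.5 FPKM for Sham, 10 for H/R and 11 for EGR1OV, and Slc34a1, Umod and Slc12a1 under it in each group.

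Promoter sequence is shown for the members whose upstream bases hold a letter match to a motif of an AP-1, CREB, Egr or TATA-binding factor. RefSeq (GRCm38.p6) had a promoter entry for 6 of the 7 members, and Fosl1 is named only. The 250 bases before each start were searched on both strands. Capitals mark the match. Fos is shown for a CRE core (TGACGT) and a TATA box (TATAAA), Fosb and Fosl2 for an Egr site (GCGGGGGCG), and Jun for an AP-1-like site (TGACATCA).
Fos, chr12:85473790-85473889, plus strand: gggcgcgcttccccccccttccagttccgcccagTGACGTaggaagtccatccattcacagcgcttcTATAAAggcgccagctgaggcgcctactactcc
Fosb, chr7:19310052-19310145, minus strand: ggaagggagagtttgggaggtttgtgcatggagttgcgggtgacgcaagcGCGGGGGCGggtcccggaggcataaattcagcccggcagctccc
Fosl2, chr5:32136382-32136411, plus strand: tccggctgcgcGCGGGGGCGgaagggcgcg
Jun, chr4:95052223-95052322, minus strand: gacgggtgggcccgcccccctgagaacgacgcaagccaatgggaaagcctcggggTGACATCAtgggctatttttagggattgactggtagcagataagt

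In the Fos window the CRE core lay from -66 to -61 and the TATA box from -33 to -28, counted from the base before the start as -1. The Egr site lay from -50 to -42 in Fosb and from -79 to -71 in Fosl2, and the TGACATCA site from -45 to -38 in Jun. Of 32851 promoters of the same length, an Egr site (GCGGGGGCG or GCGTGGGCG) was in 3.06%, a CRE core in 6.47%, a TATA box in 12.4% and TGACATCA in 2.93%. The AP-1 site TGACTCA was in 4.46% and the CArG box, the binding sequence of SRF, in 1.47%. Neither was in the window of a member. Bases farther upstream were not searched, so a CArG box or AP-1 site there, in Fos or another member, would not be seen. The ISRE, an interferon response element, was in 2.98% and in Fosl2 of the members. No motif searched was in the windows of Junb or Jund. The CRE core and TGACATCA were added to the search after the sequences were seen. The sites do not overlap one another in the runs shown. The RefSeq start of Fosl2 lies 671 bases inside the gene model of the table, so other starts of that gene were not searched. A match is a description of letters and says nothing of binding in these cells.

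By the deposited FPKM, the Jun family was the larger part of the AP-1 transcripts, and Junb alone made up most of them. The share of Junb takes the low value of Jund, whose level is uncertain, as it stands. Junb, an early response Jun protein that is often a weaker activator than Jun, lies at chr8:84974484-84978718 on the minus strand (GRCm38). It was at 103.6, 102.1 and 104.8 FPKM in Sham, at 104.4, 111.2 and 105.4 in H/R and at 133.0, 146.2 and 127.1 in EGR1OV. The 3 EGR1OV libraries were above all 6 others, while Sham and H/R overlapped. In Sham it ranked 375 of the 13985 genes tested by mean FPKM. The Junb model shares 173 of its 2301 exon bases with Prdx2 on the opposite strand, and how reads of these bases were assigned is not stated. Prdx2 was at 71.2 FPKM for Sham, 67.6 for H/R and 68.3 for EGR1OV.

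Junb changed by 0.38 on the log2(FPKM + 1) scale in EGR1OV against Sham (SE 0.048, limma adjusted p = 0.000161). The ratio of the mean FPKM was 1.31. A call sets the log2(FPKM + 1) change, not that ratio, against 1.3-fold, and Junb was just past it. The call rests on that threshold: the log2 change was 0.33 without EGR1OV replicate 2 and 0.37 without Sham replicate 2, both under 1.3-fold, with adjusted p = 0.000166 and 0.00109 in limma. It was also under the threshold with median-ratio scaling, at 0.35, and with quantile normalization, at 0.34. In H/R against Sham the difference of Junb was 0.05 on the log2 scale (95% interval -0.06 to 0.16, limma adjusted p = 0.566).

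Jun, the founding member and a strong activator that is phosphorylated by JNK, lies at chr4:95049034-95052222 on the minus strand. Its values were 27.7, 29.8 and 26.3 FPKM in Sham, 30.6, 28.3 and 29.4 in H/R and 32.5, 34.2 and 29.2 in EGR1OV. The lowest EGR1OV library lay inside the Sham range. The Jun model shares 232 of its 3189 exon bases with the antisense gene Junos, which was at 0.201 FPKM for Sham, 0.186 for H/R and 0.253 for EGR1OV. Jun was not called in any comparison at the fold thresholds. The log2 difference was 0.19 in EGR1OV against Sham (SE 0.062, limma adjusted p = 0.0337) and 0.08 in H/R against Sham (limma adjusted p = 0.473). Over the alternative fits, the adjusted p of the former ran from 0.00395 to 0.199 in limma.

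Jund, a Jun protein that is usually expressed at steady levels and slows growth in several cell types, was near the floor of detection here. It read 0.802, 0.825 and 0.654 FPKM in Sham, 1.00, 0.913 and 0.710 in H/R and 0.939, 1.10 and 0.748 in EGR1OV. The groups overlapped. These values rest on 18 to 30 reads per library. The log2 difference was 0.13 in EGR1OV against Sham (95% interval -0.09 to 0.34, limma adjusted p = 0.302), so no change was detectable at this depth. The added 1 in the logarithm also shrinks differences at this level. The Jund model in the table, chr8:70698949-70700616 on the plus strand, shares 877 of its 1668 exon bases with the antisense gene Gm11175, and the RefSeq start lies 1210 bases upstream of it. Whether counting used strand is not stated, so the level of Jund is uncertain.

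Among the Fos family, Fosl2 was the most abundant and Fos moved most. Fos, the prototype immediate early gene, lies at chr12:85473890-85477273 on the plus strand. It was at 1.76, 1.51 and 1.73 FPKM in Sham, at 1.58, 1.57 and 1.58 in H/R and at 4.84, 4.73 and 4.07 in EGR1OV. The lowest EGR1OV library was above 2 times the highest library of either other group. The values rest on 60 to 68 reads in Sham and H/R and 161 to 189 in EGR1OV.

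The log2 change of Fos was 1.06 in EGR1OV against Sham (SE 0.067, limma adjusted p = 1.57e-06), a ratio of means of 2.73. It ranked 364 from the highest among the 13985 changes. In H/R against Sham the difference was -0.05 (95% interval -0.20 to 0.10, limma adjusted p = 0.695). In EGR1OV against H/R, Fos was higher by 1.10 on the log2 scale (limma adjusted p = 1.08e-06). Each of these EGR1OV calls held in all 19 fits in which Fos was tested, those with a library left out included.

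Fosl1, also called Fra-1, lacks the transactivation domain of Fos and is known as a later, longer lasting response to MAP kinase signals. It was at 12.5, 13.4 and 13.3 FPKM in Sham, at 18.6, 16.1 and 17.1 in H/R and at 19.6, 19.0 and 18.7 in EGR1OV. Both treated groups were above every Sham library, and the EGR1OV libraries were above every H/R library by a small margin. The log2 change was 0.38 in H/R against Sham (SE 0.052, limma adjusted p = 0.00320) and 0.52 in EGR1OV against Sham (SE 0.052, limma adjusted p = 4.00e-05). The ratios of means were 1.32 and 1.46, and both calls held in all 20 fits.

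Fosl1 differed between EGR1OV and H/R by 0.14 on the log2 scale (95% interval 0.02 to 0.26, limma adjusted p = 0.0475), under the fold threshold. Over the alternative fits that adjusted p ran from 0.00762 to 0.627 in limma. Fosl1 lies at chr19:5447703-5455945 on the plus strand in the deposited annotation. The GENCODE M21 model of Fosl1 has other ends and 2033 exon bases, and shares 1163 of them with Ccdc85b on the opposite strand. The deposited values fit another exon length, 1707 bases, and the overlap of that model is not known. Ccdc85b was at 51.8 FPKM for Sham, 52.5 for H/R and 37.2 for EGR1OV; its lower value in EGR1OV stands beside a higher Fosl1. How reads of the shared bases were assigned is not stated, which leaves the level of Fosl1 uncertain.

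Fosl2, or Fra-2, also lacks a transactivation domain and lies at chr5:32135801-32157842 on the plus strand. It was at 30.1, 30.5 and 30.4 FPKM in Sham, at 29.3, 29.3 and 30.8 in H/R and at 39.4, 39.9 and 38.7 in EGR1OV. The EGR1OV libraries were far above the rest relative to their spread, and Sham and H/R overlapped. The log2 difference of 0.36 from Sham had the smallest SE of the members (0.028, limma adjusted p = 5.36e-06), yet it was just short of the fold threshold. The mean FPKM of Fosl2 was 29.7% higher. Against H/R the difference was 0.39 (limma adjusted p = 3.07e-06) and was called. That call was lost with median-ratio scaling, at 0.32, and with quantile normalization, at 0.30, by the fold threshold.

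Fosb, an immediate early gene whose truncated product is long-lived, lies at chr7:19302696-19310051 on the minus strand. It was at 0.935, 0.597 and 0.815 FPKM in Sham, at 0.693, 0.636 and 0.641 in H/R and at 0.916, 1.25 and 1.27 in EGR1OV. EGR1OV replicate 1 lay within the Sham range, and all EGR1OV libraries were above H/R. The log2 difference was 0.27 from Sham (SE 0.097, limma adjusted p = 0.0481) and 0.37 from H/R (limma adjusted p = 0.0107), both under the fold threshold. The ratios of the mean FPKM, which the threshold does not use, were 1.46 and 1.74. The adjusted p of the former ran from 0.00545 to 0.156 in limma over the alternative fits. The difference from H/R was called in 5 alternatives: without EGR1OV replicate 1, at 0.45, without H/R replicate 1, at 0.38, with the covariate Gm23935, at 0.42, with a pseudocount of 0.1, at 0.71, and with voom on recovered reads, at 0.79. At a level near 1 FPKM the added 1 in the logarithm shrinks the difference, and the voom value from Sham was 0.56 (limma voom adjusted p = 0.00545), which was called.

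**Figure D1:**
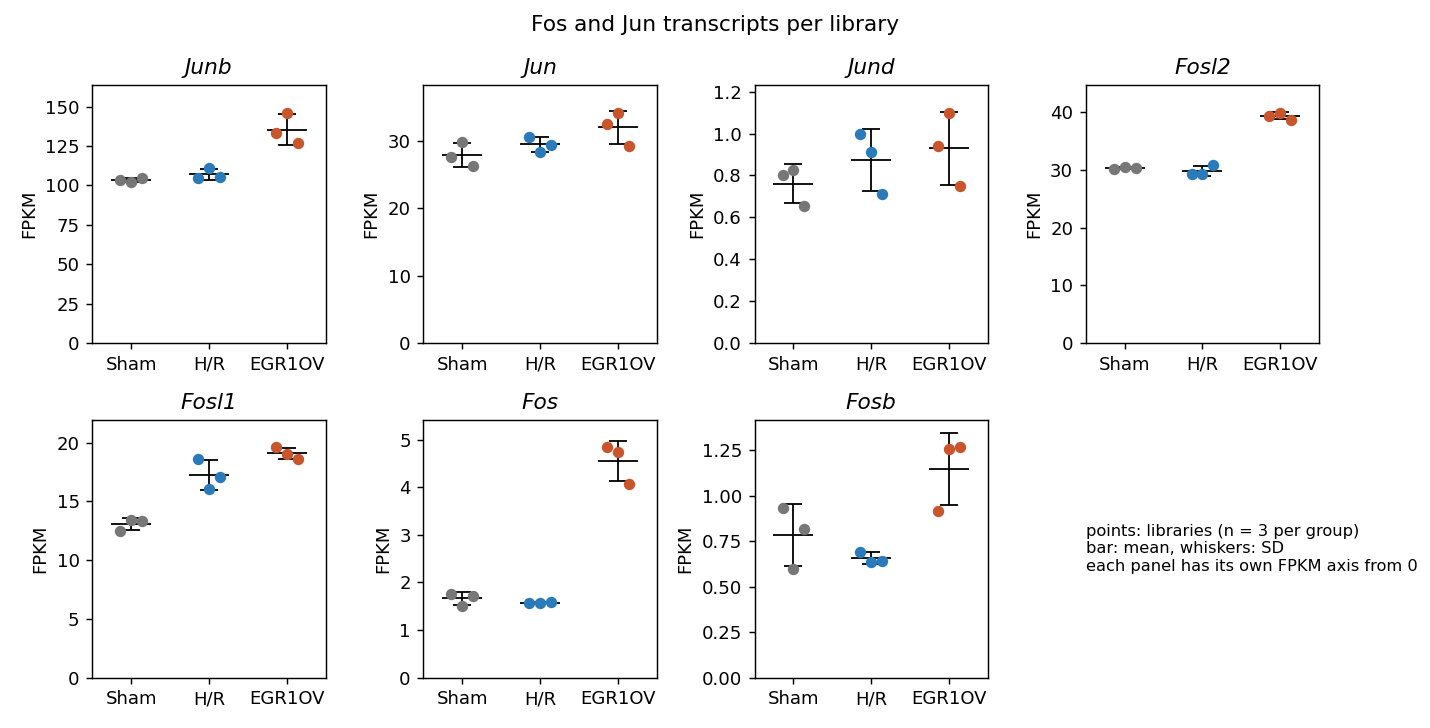
FPKM (vertical axes, from 0, each panel with its own scale) of each AP-1 member in the 9 libraries, with points for libraries, horizontal bars for group means and error bars for the SD (n = 3). The 3 EGR1OV libraries stand above all others for Fos, Fosl1, Fosl2 and Junb, and the H/R libraries stand above Sham for Fosl1.

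Counted over the members, 3 of 7 were called higher in EGR1OV than in Sham, against 9.87% of all genes tested that were called higher. Without the fold threshold, 6 of 7 were higher at an adjusted p under 0.05 in limma, against 26.1% of all genes. In 4 of 7 the EGR1OV libraries lay above all Sham libraries, against 31.0% of all genes. No member was called lower, against 6.51% of all genes, none was lower at an unadjusted p under 0.05, and voom on recovered reads called none lower and 4 higher. With median-ratio scaling, quantile normalization, the Gm23935 covariate, or without Sham replicate 2 or EGR1OV replicate 2, the count of called members was 2. All 7 members passed the filter of a mean of 0.5 FPKM.

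In H/R against Sham, 1 of 7 was called higher, Fosl1, against 1.6% of all genes, and none was called lower, against 2.65%. Fosl1 was also the only member past the adjusted p alone or above all Sham libraries, which 4.15% and 11.8% of all genes were. Its change ranked 225 from the highest of 13985. None of the other 6 members had an unadjusted p under 0.05 in limma. In EGR1OV against H/R, 2 of 7 were called higher, Fos and Fosl2, against 11.9% of all genes, and 5 of 7 were higher by adjusted p alone, against 32.0%. In 5 of 7 the EGR1OV libraries were above all H/R libraries, against 36.6% of all genes, and no member was called lower, against 6.94%. The count of called members was 1 under both scalings and 3 with a pseudocount of 0.1, voom, the Gm23935 covariate, or without H/R replicate 1, EGR1OV replicate 1 or EGR1OV replicate 3. The 3 comparisons share libraries, so their counts are not independent. The median change of all genes was 0.02, -0.03 and 0.05 on the log2 scale in EGR1OV against Sham, H/R against Sham and EGR1OV against H/R.

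The scaling of the libraries moves the balance of calls over all genes. In EGR1OV against Sham, 60.3% of called genes were higher with values as deposited, 54.9% with median-ratio scaling and 45.9% with quantile normalization. In H/R against Sham the shares were 37.7%, 58.2% and 56.5%, and in EGR1OV against H/R they were 63.2%, 51.0% and 42.5%. Fos and Fosl1 kept their direction against Sham in EGR1OV, and Fosl1 in H/R, under each scaling.

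**Figure D2:**
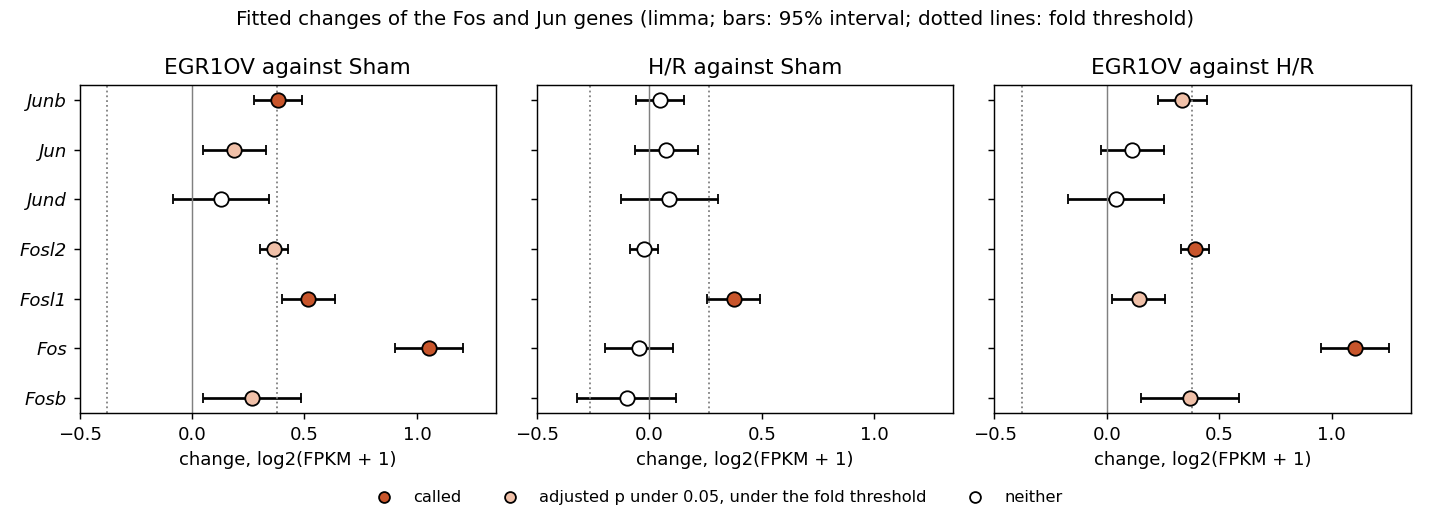
Log2(FPKM + 1) difference (horizontal axis) of each member in the 3 comparisons, with points for the limma estimate, bars for the 95% interval and dotted lines at the fold threshold. Fos stands apart at 1.06 against Sham and 1.10 against H/R in EGR1OV, and Fosl1 is the member whose H/R interval lies well above 0.

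Members were also set side by side as levels per length. The summed FPKM of the 7 was 178 ± 0.774 for Sham, 187 ± 1.24 for H/R and 232 ± 13.4 for EGR1OV (SD, n = 3). Junb held 58.1% of that sum for Sham, 57.3% for H/R and 58.2% for EGR1OV. Fosl2 held 17.0% in Sham and in EGR1OV and slightly less in H/R, and Jun held 15.7%, 15.8% and 13.7%. Fosl1 went from 7.34% in Sham to 9.25% in H/R and 8.23% in EGR1OV. Fos made up 0.936%, 0.845% and 1.96%, so the member with the largest relative change stayed a minor part of the transcripts. The Fos family together held 25.8 ± 0.219% for Sham, 26.4 ± 0.977% for H/R and 27.6 ± 1.14% for EGR1OV. These are transcript shares and not protein or dimer shares. They take the values of Jund and Fosl1 as deposited, and the levels of both are uncertain.

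The order of levels was Junb, Fosl2, Jun, Fosl1, Fos, Fosb and Jund in Sham and EGR1OV. Neighbours did not overlap between libraries in these groups except Fosb and Jund. In H/R, Fosl2 at 29.8 and Jun at 29.4 FPKM overlapped, and Jund stood above Fosb without overlap. Jund rests on 18 to 30 reads per library, so its place beside Fosb is not firm. Its level is also uncertain because of the exon bases shared with Gm11175, so its low place in the order is not firm either.

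**Figure D3:**
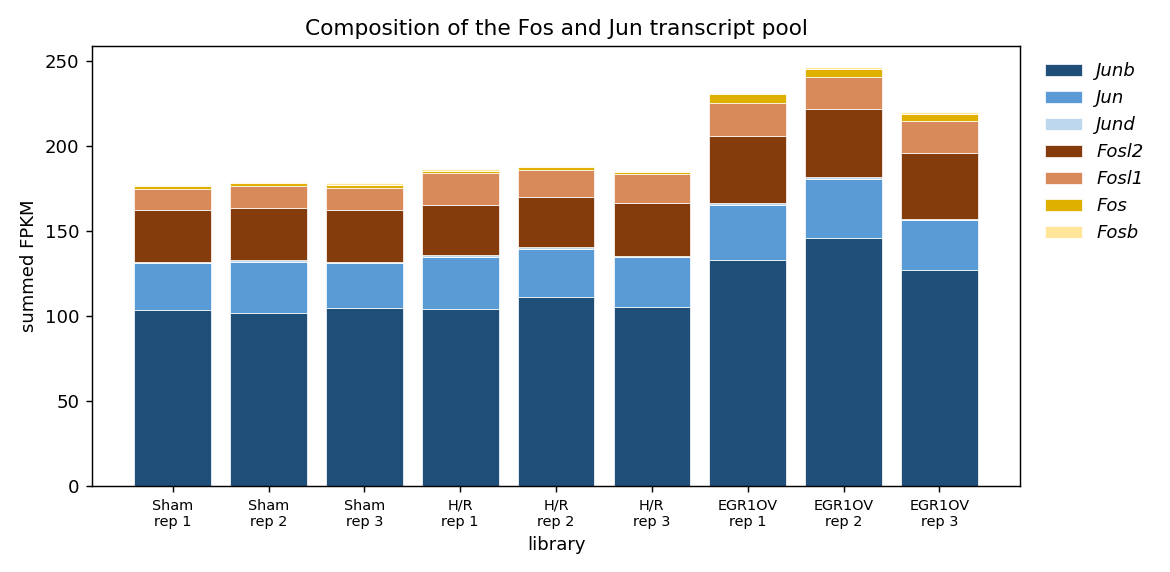
Summed FPKM of the 7 members (vertical axis, from 0) as a stacked bar for each of the 9 libraries, with a colour for each member. Junb is the largest segment in each library, and the bars of the EGR1OV libraries are the tallest, at a mean of 232 FPKM against 178 in Sham.

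Across the 9 libraries, Fos was most like Fosl2 among the members (Pearson r = 0.988 on log2(FPKM + 1)) and like Junb (r = 0.956), and less like Fosl1 (r = 0.658). These values follow the 3 groups and are given as a description. Among other genes of at least 5 FPKM, the genes most like Fos were Vps37b, Dvl1 and Cachd1 (r = 0.998, 0.997 and 0.996), and 1455 genes reached 0.9. For Fosl2 they were Aftph, Nfkbiz and Trim12c (0.998, 0.997 and 0.997), and for Junb Pcnx3, Ltbp3 and Ep400 (0.996, 0.991 and 0.987). Fosl1 was most like Tgfb1, Rgs16 and Nfkb2 (0.992, 0.991 and 0.976), with 82 genes at 0.9 or more. For Jun they were Nup54, Polr1e and Zcchc8 (0.990, 0.944 and 0.935), for Fosb Susd1, Slc41a1 and Gemin6 (0.976, 0.968 and 0.964), and for Jund Cdk5rap3, Dhx57 and Ntmt1 (0.890, 0.850 and 0.824). Genes at 0.9 or more numbered 1423 for Fosl2, 1013 for Junb, 103 for Fosb, 7 for Jun and 0 for Jund. Jund rests on 18 to 30 reads per library. The genes named are the top 3 of 7584 searched over 9 libraries, so a high r alone shows no link.

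Genes of the pathway around the members were read from 5 lists. Each count is to be read against all genes tested, of which 9.87% were called higher and 6.51% lower in EGR1OV against Sham (median 0.02), 1.6% and 2.65% in H/R against Sham (median -0.03), and 11.9% and 6.94% in EGR1OV against H/R (median 0.05). Other basic leucine zipper proteins that can pair with AP-1 were tested for 15 of 20 listed genes. In EGR1OV against Sham, 4 were called higher (26.7%) and 2 lower (13.3%), with a median log2 change of 0.12. Ddit3, a stress-induced factor also called CHOP, rose from 23.3 ± 0.693 to 66.8 ± 1.94 FPKM (log2 1.48, limma adjusted p = 2.60e-09). Atf3, which is itself an immediate early stress gene, rose from 5.36 ± 0.537 to 13.7 ± 0.682 FPKM (log2 1.22). Nfe2l2, the NRF2 factor of the antioxidant response, rose from 31.0 to 47.3 FPKM (log2 0.60), and Maff, a small MAF protein, fell from 55.5 to 33.3 FPKM (log2 -0.72).

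In H/R against Sham, 1 dimer partner was called higher and 3 lower, with a median of -0.04. That total of 4 was 2 without Sham replicate 3, without H/R replicate 2 or without H/R replicate 3. Between EGR1OV and H/R, 5 were called higher in EGR1OV and 2 lower (median 0.13). Atf3 fell from 5.36 to 3.77 FPKM (log2 -0.42, limma adjusted p = 0.0132) and Ddit3 from 23.3 to 18.4 FPKM (log2 -0.32, limma adjusted p = 0.00189). Both genes thus moved down in H/R and up in EGR1OV against the same Sham libraries.

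Kinases and factors that act upstream of Fos and Jun were tested for 32 of 35 genes. In EGR1OV against Sham, 3 were called higher (9.38%) and 1 lower (3.12%), with a median of 0.06, so the list was called no more often than all genes. In EGR1OV against H/R, 3 were called higher and none lower (median 0.07), where 7 were lower at an unadjusted p under 0.05 in limma and voom called none lower. Map2k1, the kinase that activates ERK, rose from 39.4 to 61.8 FPKM (log2 0.64, limma adjusted p = 4.98e-07). Rps6ka4, a kinase of histone H3 and CREB, rose from 14.7 to 21.1 FPKM, Mef2d rose from 14.3 to 19.0 FPKM, and Mapk13, a p38 kinase, fell from 31.6 to 22.5 FPKM. In H/R, 1 was called higher, Mapk11, another p38 kinase, from 4.56 to 5.68 FPKM, and none of the list was called without Sham replicate 3 or without H/R replicate 1. None was called lower in H/R in limma, where 8 were lower at an unadjusted p under 0.05, and voom called none lower.

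Other immediate early genes were tested for 40 of 43 listed, and Atf3 and Maff stand in this list too. In EGR1OV against Sham, 15 were called higher (37.5%) and 1 lower (2.5%), with a median of 0.21. The 15 include Egr1, the transfected gene itself. Between EGR1OV and H/R, 12 were called higher in EGR1OV, Egr1 again among them, and 3 lower (median 0.10). Cebpb rose from 2.13 ± 0.668 to 10.8 ± 2.22 FPKM (log2 1.92, limma adjusted p = 2.22e-05) and Cebpd from 1.80 to 7.45 FPKM (log2 1.60); both are inflammatory leucine zipper factors. Gem, a small GTPase, rose from 3.22 to 8.80 FPKM. In H/R, 6 were called higher and 1 lower, with a median of 0.12. Arc rose from 8.16 to 11.7 FPKM, and the ERK phosphatase genes Dusp5 and Dusp6 rose from 21.3 to 28.6 and from 22.8 to 28.7 FPKM.

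Known AP-1 target genes were tested for 34 of 39 listed. In EGR1OV against Sham, 16 were called higher (47.1%) and 5 lower (14.7%), with a median of 0.26. In EGR1OV against H/R, 12 were called higher (35.3%) and 8 lower (23.5%), with a median of 0.07, near that of all genes. The monocyte chemokine gene Ccl2 rose from 4.09 ± 0.517 to 132 ± 10.2 FPKM (log2 4.71, limma adjusted p = 4.08e-10). Hmox1, heme oxygenase, rose from 78.6 to 257 FPKM and the cytokine gene Il11 from 43.9 to 112 FPKM, while Sprr1a, a cornified envelope gene, fell from 408 to 160 FPKM. In H/R, 9 were called higher and 1 lower, with a median of 0.18. Ptgs2, the inducible cyclooxygenase, rose from 52.5 to 72.6 FPKM, Cd44 from 79.2 to 106 FPKM, Vegfa from 25.1 to 33.6 FPKM and Ccl2 from 4.09 to 6.72 FPKM. Many of these genes also answer to other factors, and their link to AP-1 in these cells was not tested.

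Genes that modify or degrade Fos and Jun protein were tested for all 16 listed. None was called in any comparison in limma with log2(FPKM + 1) and all 9 libraries. In EGR1OV against Sham 4 were higher and 4 lower at an unadjusted p under 0.05, and voom on recovered reads called 1 higher. In H/R against Sham 1 was higher and 4 lower at that level, and voom called 1 in each direction. In EGR1OV against H/R 6 were higher and 3 lower, and voom called 1 higher. With a pseudocount of 0.1, limma called 1 in EGR1OV against H/R. Without H/R replicate 3 it called 1 in each comparison with Sham, and without EGR1OV replicate 1 it called 1 in EGR1OV against Sham.

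**Figure D4:**
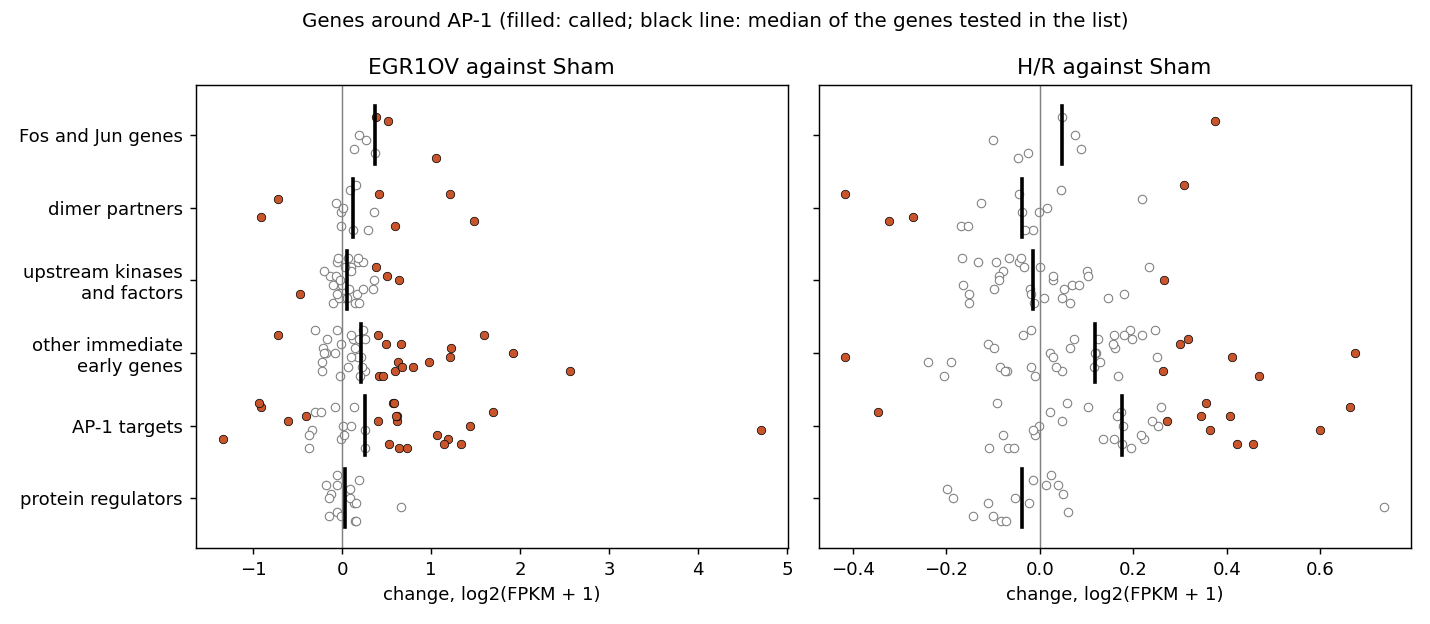
Log2(FPKM + 1) difference (horizontal axis, with its own range in each panel) of the 7 members and of the tested genes of the 5 lists, in EGR1OV against Sham and in H/R against Sham, with points for genes, filled where called, and a black line for the median. Ccl2 is the point farthest right in EGR1OV at 4.71, and the protein regulators have no filled point; the open point of that list at 0.74 in H/R is Men1, named after its value was seen (limma adjusted p = 0.176).

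Markers of other cell types moved with EGR1OV. The summed level of 13 leukocyte markers in the table was 159 to 166 FPKM for Sham, 136 to 145 for H/R and 45.3 to 53.2 for EGR1OV, and of the 10 tested, 1 was called higher and 9 lower in EGR1OV against Sham. Macrophage genes were present and fell in EGR1OV: Lyz2 went from 57.7 FPKM in Sham to 5.46, C1qa from 31.1 to 4.50 and Csf1r from 6.16 to 1.94. Cd14 rose from 5.46 to 18.0 FPKM, and Ptprc, Itgam and Cd79a were under 0.5 FPKM in every group. The 10 fibroblast and mural markers summed to 2911 to 3025 for Sham, 2657 to 2855 for H/R and 1147 to 1216 for EGR1OV, and that fall was the fall of Acta2, from 2947 to 1131 FPKM. Of the 6 tested in EGR1OV against Sham, 1 was called higher and 1 lower, and Col1a1 was at 21.1 FPKM in Sham and 25.7 in EGR1OV, Col1a2 at 7.22 and 10.2. The 8 endothelial markers summed to 11.3 to 11.6, 11.6 to 11.9 and 8.09 to 8.63. In such bulk libraries, fewer cells of a type and less RNA per cell cannot be told apart. The part of these shifts in the changes of Fos, Fosl1, Fosl2 and Junb was not tested.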

How the data were processed

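RNA sequencing libraries from 9 samples were compared as Sham, H/R and EGR1OV, by title. FPKM values per gene and library were deposited by the authors in 1 table. The submitters' processing notes name Bowtie2 2.2.3, HISAT2 2.1.0, TopHat2 and build mm9; the counter and annotation are not given in the sources used here. Gene positions equal GENCODE M21 (GRCm38) for 94.6% of genes, so coordinates are GRCm38. Reads recovered from FPKM steps and M21 exon lengths were whole within 0.02 for 94.0% of 162936 low values.

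Values were tested as log2(FPKM + 1) for 13985 genes whose mean reached 0.5 FPKM, in 1 limma fit of all 9 libraries (limma 3.58.1, R 4.3.3, trend), two-sided, with Benjamini-Hochberg adjustment over all genes. A call needed an adjusted p under 0.05 and 1.3-fold (1.2-fold where H/R was set against Sham), taken on the log2(FPKM + 1) change. The EGR1OV against H/R threshold was chosen here and the others are the study's. The log2 scale understates changes of low genes. An exact two-sided permutation test of each member cannot go below 0.1 with 3 against 3. Members, lists and tests were chosen with earlier results of these data known. Genes named from a list are up to 4 called genes with the largest change, non-overlapping libraries and 5 FPKM or more in the group with more. Code was tested on simulated data. Alternatives were other pseudocounts, filters, scalings, fits, a replicate block and each library left out.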

Additional observations from a re-analysis of the deposited data

Results flagged for a closer look

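Fos and Fosl2 were flagged because, among the members, they alone were called in EGR1OV against H/R. That comparison is the difference between their change in EGR1OV and their change in H/R. By adjusted p alone, Junb (0.33, limma adjusted p = 0.000326), Fosb (0.37, 0.0107) and Fosl1 (0.14, 0.0475) differed too. These fell under the 1.3-fold threshold, which was chosen here and is set on the log2(FPKM + 1) change. For Fosb the ratio of the mean FPKM was 1.74, and the added 1 in the logarithm shrinks its change. Against the same Sham libraries, Fos was 1.10 higher on the log2(FPKM + 1) scale in EGR1OV than in H/R (limma adjusted p = 1.08e-06, higher in 3 of 3 libraries). Fosl2 was 0.39 higher (limma adjusted p = 3.07e-06, higher in 3 of 3 libraries). For Fosl2 the fold threshold was missed with median-ratio scaling and with quantile normalization.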

How the results depend on the processing

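Fos in EGR1OV against Sham and against H/R, and Fosl1 in both comparisons with Sham, kept their direction and call in every alternative fit in which they were tested; Fos was not tested at a mean of at least 5 FPKM. Without a fold threshold, 6417, 1635 and 7135 genes passed in EGR1OV against Sham, H/R against Sham and EGR1OV against H/R, with 6, 1 and 5 members. At 2-fold these were 484, 11 and 489 genes with 1, 0 and 1 members. With a mean of at least 5 FPKM, where fewer genes were tested, 1315, 372 and 1520 genes were called, and 1 member in EGR1OV against H/R, Fosl2. The count there was also 1 with median-ratio scaling and with quantile normalization, but that member was Fos, and Fosl2 was at 0.32 and 0.30. Limma voom on recovered reads and a Gm23935 covariate were chosen after seeing the data; voom called 1001 genes in H/R against Sham, and the cause was not tested.

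Differences that turned direction were never called: Fosl2 in H/R against Sham was 0.014 with median-ratio scaling, and Jund in EGR1OV against H/R was -0.0069 with quantile normalization, -0.078 with the Gm23935 covariate, and from -0.024 (without H/R replicate 3) to 0.11 with a library left out, and also below 0 without EGR1OV replicate 2. With the Gm23935 covariate the change of Junb in EGR1OV against Sham, 0.38, was just under the fold threshold. Junb in EGR1OV against H/R was called without EGR1OV replicate 3, at 0.38.

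With replicate number as a block, 2309, 516 and 2654 genes and 3, 1 and 2 members were called. Same-numbered libraries correlated at -0.195 at the lowest in their deviations, and not all above 0.1, so the numbers were not taken as pairs. Read depth limits Jund and Fosb, and overlapping genes leave the levels of Jund and Fosl1 uncertain.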
